A study of Mus musculus musculus x M. m. domesticus and Mus musculus domesticus and Mus musculus with 12 samples.

Results

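*Scml2* (ENSMUSG00000000037_at in the deposited values) was 1 of 7000 genes measured in whole testis, and it is described here across 12 males from 4 crosses of house mice. It was chosen by name, after earlier results of these data were known, for its values in sterile hybrid males. All males were F1 animals aged 60 days, 3 per cross, and the maternal strain is written first. The *DxD* cross, LEWES/EiJ x WSB/EiJ, was made within *M. domesticus*, and the *MxM* cross, PWK/PhJ x CZECHII/EiJ, within *M. musculus*. The hybrids were reciprocal, with LEWES/EiJ x PWK/PhJ for *DxM* and PWK/PhJ x LEWES/EiJ for *MxD*, and only the *MxD* males were sterile. Each within-species cross thus shares 1 parental strain with the hybrids and adds another that they do not carry. Each male was measured on 1 Affymetrix array, and the authors deposited a quantile normalized log2 value per gene, so that a difference of 1 is a 2-fold change in signal. No depth can be given for arrays, and precision is limited by how many there are. Probe sequences come from laboratory mice, whose ancestry is closer to *DxD* than to *MxM* males, and an effect of strain differences under the *Scml2* probes was not tested. Whether the samples hold the cell types of the testis could not be checked by marker genes, since the tables used here name too few of them. The study's histology showed fewer germ cells in *MxD* testes, with a marked loss of cells after meiosis. From this shift alone the study expects genes of mitotic germ cells to appear higher in *MxD* males. Its part in the values of *Scml2* was not tested.

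*Scml2* encodes a germline member of the Polycomb group, the chromatin proteins that keep genes silent by modifying histones. Its protein works with Polycomb repressive complex 1, which places ubiquitin on histone H2A, and in male germ cells it is known for restraining this mark on the sex chromosomes in meiosis together with the deubiquitylase Usp7. It is found in mitotic and early meiotic germ cells, where it also helps to shut down genes of other cell types and of earlier germ cell stages. The gene is known to lie on the X chromosome, which is silenced in meiosis and stays largely repressed in spermatids. Its position is not in the tables used here, and the comparisons by X chromosome rest on this background. A male has a single X chromosome from his mother, so *MxD* and *MxM* males carried the same PWK/PhJ copy of *Scml2*, and *DxM* and *DxD* males the same LEWES/EiJ copy.

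*Scml2* was higher in every sterile *MxD* male than in any of the 9 fertile males. Its log2 values in the *MxD* males were 7.52, 7.75 and 7.99 for replicates 1, 2 and 3. In the *MxM* males they were 6.78, 6.99 and 7.32, and in the *DxM* males 6.67, 7.12 and 6.77. The *DxD* males were lowest, at 6.48, 6.67 and 6.59. The 2 genotypes with the PWK/PhJ X chromosome had the higher means, and the highest fertile male, *MxM* replicate 3, was 0.20 below the lowest sterile male. In whole testis, more cells of a type that expresses the gene and more of its RNA per cell cannot be told apart.

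**Figure D1:**
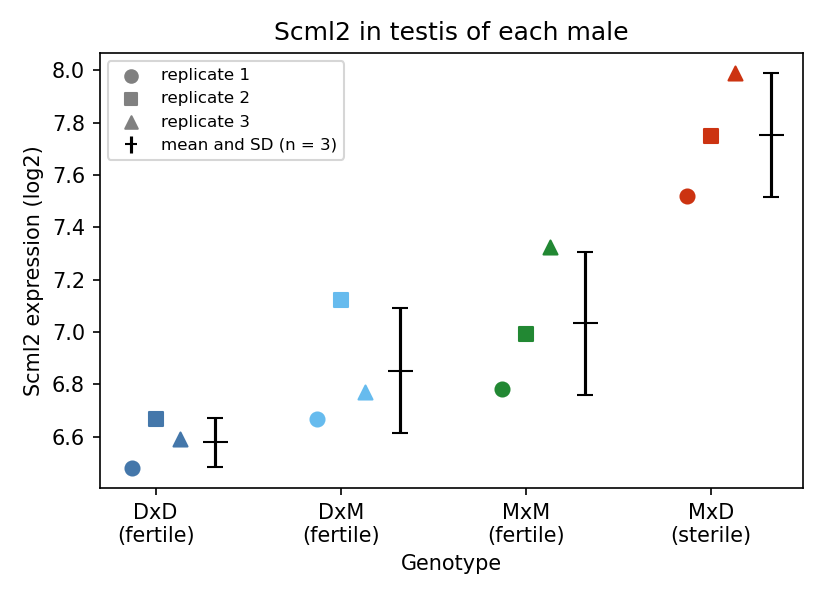
Log2 expression of *Scml2* in each of the 12 males, by genotype, with a symbol for each replicate number and the mean and SD of 3 males beside them. The 3 *MxD* males lie between 7.52 and 7.99, above all 9 fertile males, whose values run from 6.48 to 7.32.

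In order of level, the means were 6.58 ± 0.09 (SD, n = 3) in *DxD*, 6.85 ± 0.24 in *DxM*, 7.03 ± 0.27 in *MxM* and 7.75 ± 0.24 in *MxD*. The lowest *DxM* male was only 0.0012 above the highest *DxD* male, and the *DxM* and *MxM* males overlapped. The mean of *MxD* was above that of *DxM* by 0.90 on the log2 scale (standard error 0.19 from the 2 genotypes), a 1.87-fold difference. It was above that of *DxD* by 1.17 (standard error 0.15), or 2.26-fold, and above that of *MxM* by 0.72 (standard error 0.21), or 1.65-fold. The smallest of the 3 was therefore the one between males with the same X chromosome. These differences are the ones for which the gene was chosen, so they are given as a description and were not tested.

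Among the 7000 genes, 11 had a larger difference between *MxD* and *DxM* than *Scml2*, 28 a larger one between *MxD* and *DxD*, and 188 a larger one between *MxD* and *MxM*. By the mean of the 3 differences, 0.93, *Scml2* was number 12 from the top. Of the 11 genes above it, 2 have a name in the tables used here. They are Cyp17a1, a steroidogenic enzyme of Leydig cells, with a mean difference of 1.00, and the X-linked gene 1110059M19Rik with 0.99. The genes directly before and after *Scml2* in this order had mean differences of 0.93 and 0.90. By the smallest of the 3 differences, which asks for a gene to be higher than in each fertile genotype, *Scml2* was number 7, at 0.72.

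The order was lower when the spread between males was taken into account. In 383 genes, or 5.47% of those measured, every *MxD* male was above every fertile male. By the size of that gap, *Scml2* was number 80. The *MxM* replicate 3 male sets the gap of *Scml2*, and this array stood apart from the others, with 131 genes at least 1 log2 unit below all other males, against at most 4 in any other array. *Scml2* was not among those low genes, as this male had its highest fertile value. Without this male the gap of *Scml2* was 0.40 and its place number 20, and the difference between *MxD* and *MxM* was 0.87. Other genes gained as well, since every *MxD* male was then above every remaining fertile male in 527 genes.

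**Figure D2:**
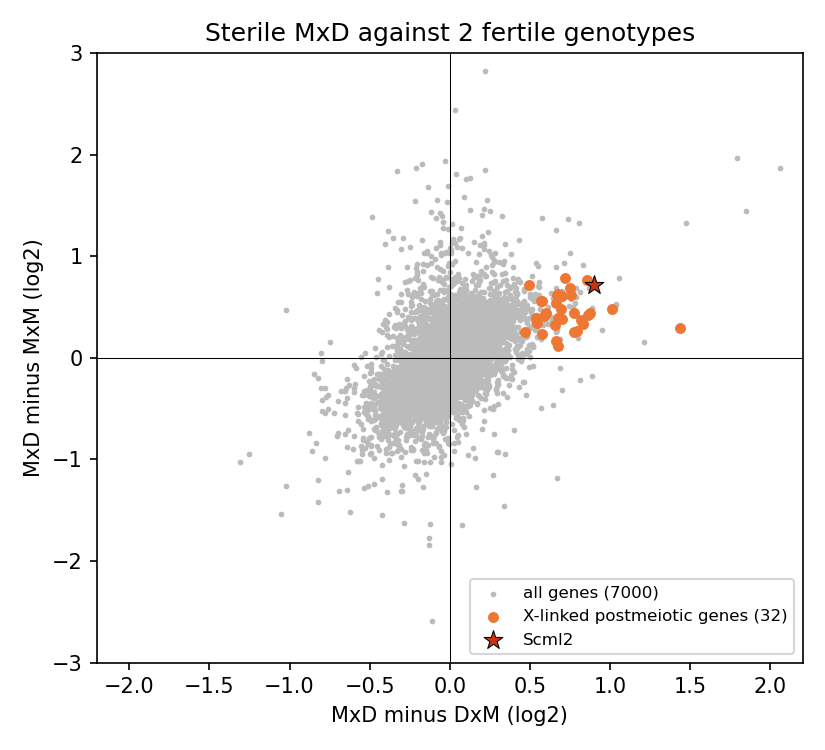
Difference of means between *MxD* and *DxM* (horizontal axis, log2) against that between *MxD* and *MxM* (vertical axis, log2) for all genes in grey, 32 X-linked postmeiotic genes in orange and *Scml2* as a red star, with 2 genes outside the axes. *Scml2*, at 0.90 and 0.72, lies at the upper right edge of the orange points.

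The comparisons among fertile males were not used to choose the gene and could be tested, although they share the fertile males with the differences above. Each was fitted with limma across all genes and adjusted by Benjamini-Hochberg over all 7000. The mean of *DxD* was lower than that of *MxM* by 0.45 on the log2 scale, with a 95% interval of the signed difference from -0.81 to -0.10, but the limma adjusted p of 0.051 missed the threshold of 5%. At that threshold 31.9% of all genes were called between these crosses, and *Scml2* was not. Over 22 alternatives the adjusted p of this difference ranged from 0.0093 to 0.24, and 9 of them passed the threshold. Among them was the fit with the replicate number as a block (limma adjusted p = 0.012). The main fit leaves that number out, so the call depends on its use. The difference was -0.58 without *MxM* replicate 1 (limma adjusted p = 0.020) and -0.31 without *MxM* replicate 3 (limma adjusted p = 0.16).

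The fertile hybrid *DxM* did not differ detectably from either within-species cross. Its mean was 0.27 above that of *DxD* (95% interval -0.08 to 0.63, limma adjusted p = 0.33), a contrast in which 12.1% of all genes were called. It was below that of *MxM*, at -0.18 (95% interval -0.53 to 0.17, limma adjusted p = 0.49), with 16.9% of genes called. Against the mean of *DxD* and *MxM* it stood at 0.05 (95% interval -0.26 to 0.35, limma adjusted p = 0.90), a contrast added after seeing the data, in which 4.64% of genes were called. These intervals reach 0.63 on the log2 scale, so they do not show equal expression.

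Each hybrid can be set against the within-species males with the same X chromosome, and so the same copy of *Scml2*. On the LEWES/EiJ X chromosome the hybrid *DxM* was 0.27 above *DxD*, and on the PWK/PhJ X chromosome the hybrid *MxD* was 0.72 above *MxM*. The second difference exceeded the first by 0.45, which rests on the *MxD* males and was not tested.

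For comparison, the study lists 32 X-linked postmeiotic genes, chosen on these same males for higher expression in *MxD*, so that their direction is no independent evidence. Their median difference was -0.06 between *DxM* and *DxD* and 0.43 between *MxD* and *MxM*. *Scml2* was above all 32 genes in the first of these and below 2 of them in the second. The excess of the second over the first had a median of 0.48 and ran from 0.18 to 1.11, and 20 of the 32 genes exceeded *Scml2*. *Scml2* was thus high among them in both differences and a little below their median in the excess.

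**Figure D3:**
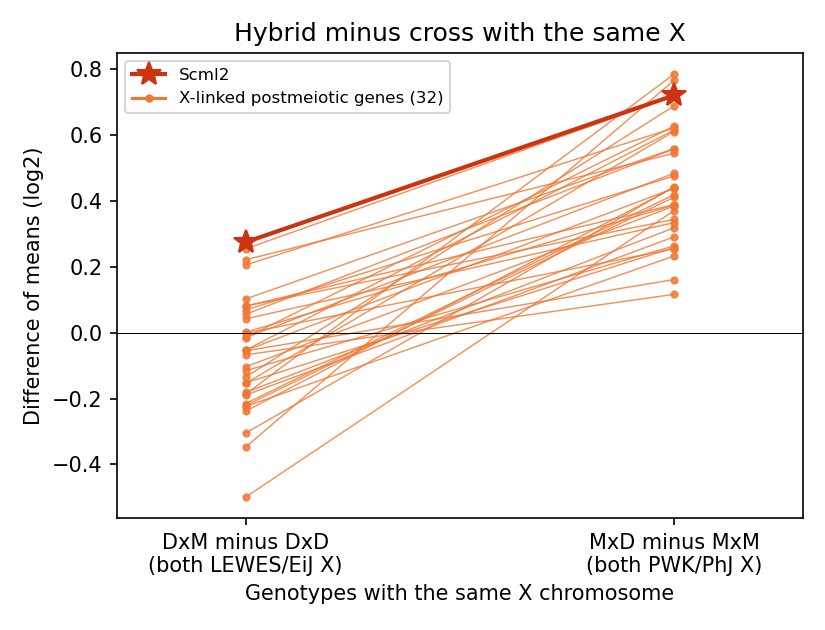
Difference of means (log2) between each hybrid and the within-species cross with the same X chromosome, with 1 line per gene for 32 X-linked postmeiotic genes in orange and *Scml2* in red. *Scml2* runs from 0.27 on the LEWES/EiJ X chromosome to 0.72 on the PWK/PhJ X chromosome, and starts above all orange lines.

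Against the other contrasts of *MxD*, *Scml2* lay in the upper part of the range of these X-linked genes. Their difference between *MxD* and *DxM* ran from 0.47 to 1.44 with a median of 0.68, and 2 of the 32 were above *Scml2*. Between *MxD* and *DxD* it ran from 0.32 to 1.25 with a median of 0.62, and 1 was above *Scml2*. Every *MxD* male was above every fertile male in 27 of the 32. By the size of that gap 15 were above *Scml2*. For each male the 32 genes were also averaged, after each gene was centred on its median across males. This mean was 0.54 ± 0.03 (SD, n = 3) in *MxD* and -0.18 ± 0.07 in *DxM*, where *Scml2* was at 0.87 ± 0.24 and -0.03 ± 0.24. With this mean subtracted in each male, *Scml2* was still higher in *MxD*, by 0.18 against *DxM*, 0.53 against *DxD* and 0.27 against *MxM*. The first of these is smaller than the SD of *Scml2* within either genotype. The males then overlapped, since the *MxD* males were at 0.12, 0.30 and 0.55, *DxM* replicate 2 was at 0.35 and *MxM* replicate 3 at 0.22.

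Gene classes by cell type can reflect the makeup of the samples, but they do not measure it alone. By the study's methods a class names the cells in which a gene was most induced, and its expression need not be specific to them. Only the first rows of the study's annotation were used here, and they give 367 mitotic, 324 meiotic, 269 postmeiotic and 142 somatic genes, all autosomal. These rows stop before the X chromosome and also leave out part of the autosomal genes, so the classes do not sample all autosomes. X-linked mitotic genes, the class most like *Scml2*, are missing from these rows. The autosomal genes are therefore an incomplete comparison. Nearly all X-linked mitotic genes that the study associated with sterility were higher in *MxD*, but so were most X-linked genes so associated. Those genes were picked by their difference in *MxD*, so this is no result about mitotic genes. By the study's counts, mitotic genes were fewer than it expected among the X-linked genes higher in *MxD*. The centred mean of the mitotic genes, the class nearest to the stage in which *Scml2* is known to act, was 0.15 ± 0.06 (SD, n = 3) in *MxD*. It was -0.01 ± 0.02 in *DxM*, -0.06 ± 0.06 in *MxM* and -0.11 ± 0.03 in *DxD*, so it was highest in *MxD*, as *Scml2* was, with smaller differences. The mean of the postmeiotic genes was -0.19 ± 0.06 in *MxD* and between 0.02 and 0.05 in the fertile genotypes. The meiotic genes were also lowest in *MxD*, at -0.06 ± 0.03, with -0.03 ± 0.04 in *MxM*, -0.01 ± 0.02 in *DxM* and 0.06 ± 0.01 in *DxD*. The somatic genes were at 0.07 ± 0.01 in *MxD* and between -0.06 and 0.01 in the fertile genotypes. The part of these shifts in the values of *Scml2* was not tested.

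*Scml2* was near the top among the mitotic genes, as among all genes. Between *MxD* and *DxM* the mitotic genes had a median difference of 0.16 and a highest of 0.80. Thus 0 of 367 reached the 0.90 of *Scml2*. Only 0.16% of all genes did, so this count is no result about mitotic genes. Between *MxD* and *DxD*, 1 mitotic gene was above *Scml2*, with 0.4% of all genes above it. Between *MxD* and *MxM*, 19 of 367 were, with 2.69% of all genes. No meiotic, postmeiotic or somatic gene of these rows was above *Scml2* between the reciprocal hybrids, where few genes of any class were. With the mean of the mitotic genes subtracted in each male, *Scml2* was at -0.20 ± 0.07 (SD, n = 3) in *DxD*, -0.03 ± 0.22 in *DxM*, 0.20 ± 0.21 in *MxM* and 0.71 ± 0.20 in *MxD*. The lowest *MxD* male was then at 0.50 and the highest fertile male at 0.42, a gap smaller than the SD within *MxD*. The mean of so broad a class need not follow the cells that express *Scml2*, and the part of cell makeup was not tested.

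**Figure D4:**
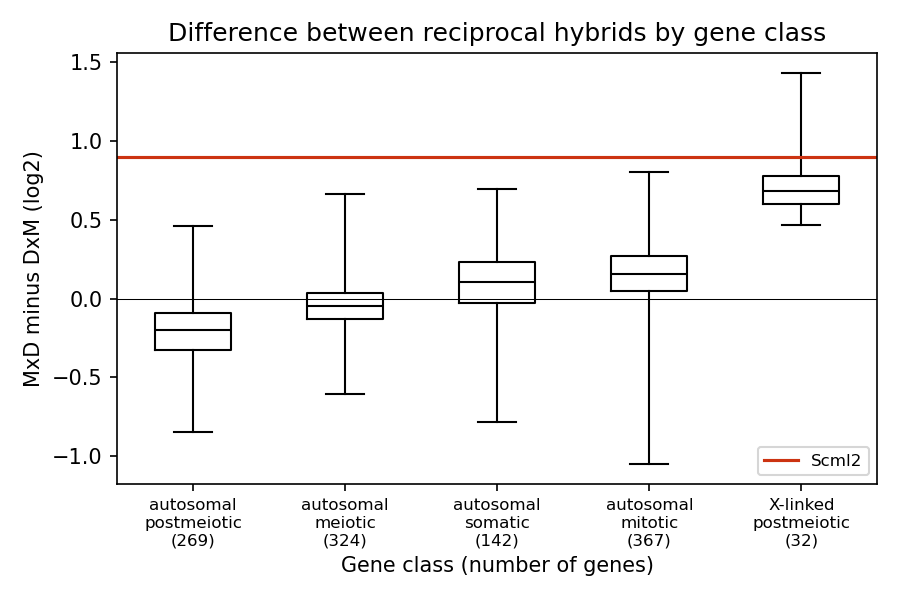
Difference of means between *MxD* and *DxM* (log2) for autosomal genes of 4 cell type classes, from the first rows of the annotation only, and for 32 X-linked postmeiotic genes. The number of genes is under each box. Boxes span the quartiles, whiskers the full range and the middle line the median, and the red line marks *Scml2* at 0.90, above every autosomal gene shown.

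**Figure D5:**
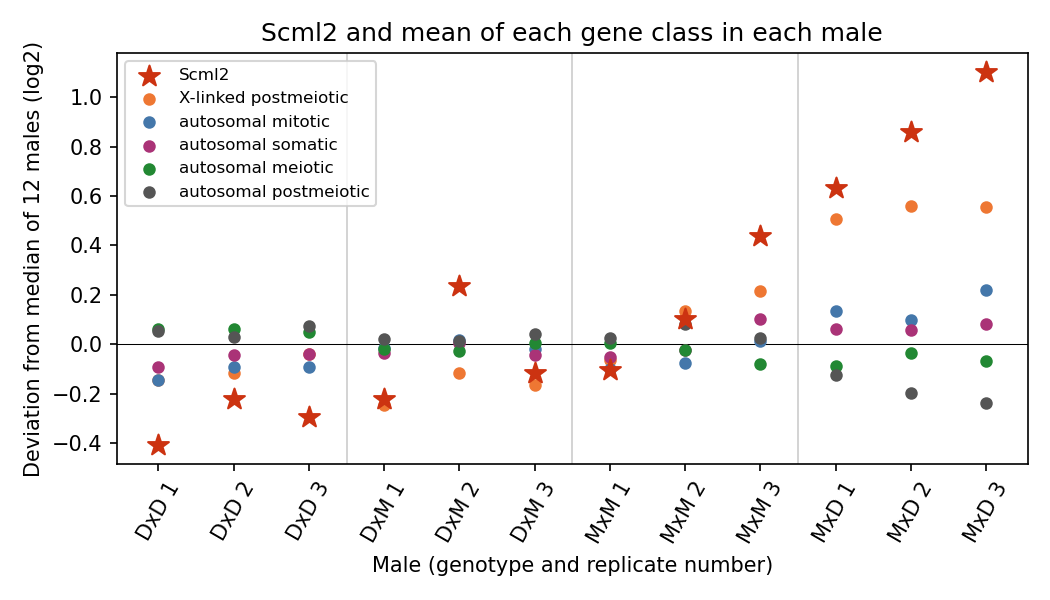
Deviation from the median of the 12 males (log2) in each male, for *Scml2* (red stars) and for the mean of each gene class (dots). *Scml2* runs from -0.41 in a *DxD* male to 1.10 in an *MxD* male, and the mean of the X-linked postmeiotic genes from -0.25 to 0.56.

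Within genotypes *Scml2* varied with the replicate number, since the replicate 1 male had the lowest value in each of the 4 genotypes. This was a common pattern, shown by 1449 genes or 20.7% of all, by 82 of the 367 mitotic genes and by 12 of the 32 X-linked genes. Within a replicate number the *MxD* male was above the *DxM* male by 0.85, 0.63 and 1.22 for numbers 1, 2 and 3. It was above the *DxD* male by 1.04, 1.08 and 1.40, and above the *MxM* male by 0.74, 0.76 and 0.67. The difference from *MxM* varied least. All 3 differences of *MxD* kept their direction within each number, which was fixed because no fertile male reached the *MxD* males. Among the fertile genotypes the *DxM* male was above the *DxD* male by 0.19, 0.46 and 0.18, and the *MxM* male was above the *DxD* male by 0.31, 0.32 and 0.73. The difference between *MxM* and *DxM* changed sign, at 0.12, -0.13 and 0.55.

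The genes most like *Scml2* were sought by Pearson correlation of their log2 values with those of *Scml2* over the 12 males. The files do not pair identifiers with gene names, so most of them can be given only by identifier. The highest was ENSMUSG00000003534 (r = 0.97), at 8.21 ± 0.16 (SD, n = 3) in *MxD*, 7.56 ± 0.18 in *MxM*, 7.51 ± 0.12 in *DxM* and 7.22 ± 0.11 in *DxD*. The next was ENSMUSG00000031176 (r = 0.97), at 8.39 ± 0.05 in *MxD* and 7.47 ± 0.09 in *DxD*. Both had the same order of genotypes as *Scml2*. In the opposite direction, ENSMUSG00000020393 (r = -0.97) was at 6.18 ± 0.15 in *MxD* and 6.77 ± 0.12 in *DxD*, and ENSMUSG00000036867 (r = -0.96) at 7.95 ± 0.11 and 8.58 ± 0.08.

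The third in this order was named, Cypt3, an X-linked gene of the cysteine-rich perinuclear theca family that is expressed in spermatids. Its values were 11.54, 11.88 and 11.78 in *MxD*, 10.90, 11.17 and 11.27 in *MxM*, 10.93, 11.28 and 10.99 in *DxM* and 10.75, 10.86 and 10.97 in *DxD* (r = 0.97). As for *Scml2*, the replicate 1 male was lowest in each genotype, and all 3 *MxD* males were above the rest. Further X-linked genes with a high correlation were 4933436I01Rik (r = 0.96), Dmrtc1a (r = 0.95) and Cypt5 (r = 0.95). Of the 32 X-linked genes 10 had r over 0.9, against 122 or 1.74% of the 6999 genes other than *Scml2*, and the median r of the X-linked genes was 0.86. The X-linked genes were chosen for high values in the same males, so a positive r is in part given by that choice. A high r was not limited to them. Among the autosomal classes, 25 of 367 mitotic genes (6.81%, median r 0.59) and 5 of 142 somatic genes (3.52%) had r over 0.9. The count was 0 for the meiotic and 0 for the postmeiotic genes.

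The 9 mitotic autosomal genes that the study lists for lower expression in *MxD* had r from -0.87 to -0.48, and here too the sign follows from the choice. They include Mthfd1, an enzyme of folate metabolism (r = -0.87), the imprinted non-coding RNA Meg3 (r = -0.86), the chromatin reader Brwd1 (r = -0.86) and the DNA methyltransferase Dnmt3a (r = -0.83).

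Likeness within genotypes does not depend on the difference between sterile and fertile males. When each male was taken as its deviation from the mean of its genotype, the median r with *Scml2* was 0.61 for the 32 X-linked genes and 0.51 for the mitotic genes. It was 0.49 for the somatic, 0.17 for the meiotic and 0.06 for the postmeiotic genes, against 0.23 for all genes. When the deviation shared by males of the same replicate number was removed too, the median was 0.29 for the X-linked genes and 0.51 for the mitotic genes. It was 0.35 for the somatic, 0.08 for the meiotic and -0.04 for the postmeiotic genes, with 0.19 for all genes. These values rest on the same 12 arrays, with few independent deviations and are a description.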

How the data were processed

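According to the methods, the authors summarised the probe signals of MG 430.2 arrays per Ensembl gene with PLIER, dropped genes not detected in every male and applied quantile normalization. The values deposited by the authors are log2 signals of 7000 genes in 12 arrays and were not transformed further, and the sorted values were identical in all arrays. Chromosome and cell type were read from the study's gene annotation, in its first rows (the 1997 used here) and in its list of 45 named genes. Gene and lists were chosen with earlier results of these data known.

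Contrasts among fertile males were fitted in R 4.3.3 using limma 3.58.1, with a mean for each genotype, a spread shared by the 4 genotypes and two-sided tests, adjusted by Benjamini-Hochberg over all genes. The fit had been tested on simulated data. Contrasts of *MxD* were not tested for *Scml2*. The labels do not say whether the males of a cross came from separate litters, and p-values measure only the spread between these males. Python 3.11.15 with matplotlib 3.10.9 made the figures.

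Named genes were to be *Scml2*, members of lists of Polycomb and cell type marker genes, those most and least like *Scml2* over the 12 males, its neighbours on the X chromosome, and the genes next to it by mean difference. The lists hold 180 symbols, and 1 (Cyp17a1) has an identifier in the tables used here. Polycomb partners, markers and neighbours were therefore not analysed here. At most 2 identifiers without a name are printed in each direction.

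Males of the same number were compared by their deviations from the mean of their genotype across genes, which correlated with r from 0.151 to 0.756 between *MxD* and each fertile genotype and from 0.162 to 0.754 between *DxD* and *DxM*, so the numbers count as pairing these males. The lowest was 0.0744 between *DxD* and *MxM* and -0.0511 between *MxM* and *DxM*. The pairing comes from these values and not from the labels. The main fit was planned without it, and the fit with the replicate number as a block is given as an alternative. Alternatives were the methods' t-test in 2 forms, limma with a trend and robust prior or array weights, fits of 2 genotypes, the replicate number as a block, the dimmest 25% of genes left out, repeated quantile normalization, centring on the median of 2005 autosomal genes and each male left out in turn. Added after seeing the data were the contrast of *DxM* with the mean of *DxD* and *MxM*, with all its alternatives, and for the other contrasts the means of the mitotic and of the 32 X-linked genes subtracted, and all replicate 1 males left out.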

Additional observations from a re-analysis of the deposited data

How the results depend on the processing

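For *Scml2* the differences of *MxD* from the fertile genotypes kept their sign under all 11 alternatives tried for each. Most of these could not change it. Every *MxD* male was above every fertile male, which fixed the sign when males were left out, and repeated quantile normalization left the differences as they were. The 2 fertile contrasts of *DxM* stayed above the threshold under all 22. Leaving out 1 male at a time gave 0.78 to 1.03 against *DxM*, 1.06 to 1.29 against *DxD* and 0.60 to 0.87 against *MxM*. Relative to the mean of the 32 X-linked genes the differences were 0.18, 0.53 and 0.27 in the same order. Relative to the mean of the mitotic genes they were 0.74, 0.91 and 0.51. The smaller values follow from subtracting genes whose means were themselves higher in *MxD*. The difference between *DxD* and *MxM* passed the threshold of 5% under 9 of 22 alternatives. It was -0.45 with the trend and robust prior (limma adjusted p = 0.047) and with a replicate block (0.012), -0.36 with array weights (0.0093), -0.43 with arrays centred on the autosomal median (0.048) and -0.53 without all replicate 1 males (0.044). It ranged from -0.58 to -0.31 when 1 male was left out, and passed without *MxM* replicate 1 (limma adjusted p = 0.020), without *DxM* replicate 2 (0.039) and without *MxD* replicate 1 (0.044) or 3 (0.044). By the labels the *DxD* and *MxM* males share only a number, and the block changed no other call. The difference of *DxM* from the mean of *DxD* and *MxM* ranged from -0.087 to 0.14 when 1 male was left out and changed sign without *MxM* replicate 1 (-0.015) and without *DxM* replicate 2 (-0.087). The cause of these changes was not tested. The planned counts of changed Polycomb genes were not run, because no table used here gives their identifiers. Signal over background cannot be judged from the normalized values.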
